A study of Mus musculus with 15 samples.

Results

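The 8 wild-type (WT) arrays of a mouse cerebellum series were divided by the number in their sample labels, and WT arrays 1 to 4 were compared with WT arrays 5 to 8 across all measured genes. They are 8 of the 15 arrays of the series. The division followed the array numbers, but it was chosen by the log2 signals themselves, which had been seen to differ along it on arrays of both genotypes, so the WT contrast is given as a description without a test. The labels give no BeadChip, date or litter that would say what the numbers stand for.

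Each array held RNA of the cerebellum of a mouse on postnatal day 1, and the strain is labelled C57BL/6. The KO mice were Cxcr4 flox/flox; Sox1-Cre animals, in which Cre is active throughout the embryonic neural tube. Whether Cre was active in cells of meninges, vessels and blood is not given in the sources used here, and their Cxcr4 was not measured apart. WT mice were littermates that carried no Cre. The labels give no sex, and the 8 WT and 7 KO arrays, numbered 2 to 8 in KO, were hybridized to an Illumina MouseRef-8 v2 BeadChip, which carries several arrays side by side.

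On postnatal day 1 the cerebellum is in the middle of its growth. Progenitors of granule cells divide in the outer layer beneath the meninges, Purkinje cells gather below them and begin to form synapses, and Bergmann glia guide the young granule neurons inward. Choroid plexus and meninges adhere to the tissue, so that the amount taken along can differ between dissections. On a bead array, a probe whose transcript is scarce gives a signal close to that of the many probes without a transcript, and differences between such probes are compressed.

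Signals are given as log2 values after every array had been shifted to a common median of 6.81, for 16593 genes with 1 probe each. The array median of the raw signal lay between 111.4 and 120.8 on WT arrays 1 to 4 and between 101.2 and 116.3 on WT arrays 5 to 8. Markers of the cerebellum were mostly bright. Zic1 of the granule cell lineage had a mean log2 signal of 12.9 over all arrays, Gdf10 of Bergmann glia 12.8, En2 of the hindbrain 12.3 and Pcp2 of Purkinje cells 11.6. Pax6, Atoh1 and Calb1 gave dim signals of 6.2, 5.8 and 5.9 through their probes. Cxcr4 lay between 8.77 and 9.76 on the WT arrays and between 6.42 and 6.86 on the KO arrays.

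A gene was called separated where its signals on WT arrays 1 to 4 and on WT arrays 5 to 8 did not overlap and the means differed by at least 0.5 on the log2 scale. This held for 70 genes higher on arrays 5 to 8 (0.422% of all genes) and for 20 genes lower there (0.121%). Without WT array 6 the counts were 116 and 35. The mean log2 signals of the higher genes had a median of 9.28. The lower genes were dim, with a median of 6.80, and 19 of 20 had a mean log2 signal below 7.5. The differences were small. The highest difference among the 70 was 0.75 and the largest drop among the 20 was 1.07. Over all genes the median absolute difference was 0.12, and the median standard deviation within a set of 4 arrays was also 0.12.

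Genes just inside the limit were Adgrb2, an adhesion receptor of brain, with a difference of 0.500012, and Actg1, a cytoplasmic actin read here by a dim probe, with -0.501. Just outside it lay Abcc8, a subunit of potassium channels, with a difference of 0.499586, and Boc, a co-receptor for sonic hedgehog, with -0.493. Without a minimum difference, the 4 and 4 arrays did not overlap for 2119 higher genes (12.8% of all genes) and 752 lower genes (4.53%).

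Lime1, which encodes a transmembrane adaptor of lymphocyte signalling, had the largest difference among the higher genes. Its log2 signal was 8.13, 8.43, 7.99 and 8.19 on WT arrays 1 to 4 and 8.83, 8.87, 9.21 and 8.85 on WT arrays 5 to 8. The lowest array of the second set lay above the highest of the first, and the means of 8.19 ± 0.18 and 8.94 ± 0.18 (SD, n = 4 each) differed by 0.75, or 1.69-fold. Lrrc4b, a leucine-rich adhesion protein of excitatory synapses, gave 9.42, 9.47, 9.37 and 9.47 on arrays 1 to 4 against 9.95, 10.03, 10.34 and 10.04 on arrays 5 to 8. Its difference was 0.66, and arrays 1 to 4 lay within about 0.1 of each other. Apc2, a neuronal relative of the tumour suppressor Apc that binds microtubules, gave 8.81, 8.94, 8.77 and 8.65 against 9.36, 9.43, 9.52 and 9.33. The sets were apart by 0.62 in their means, with a standard deviation of 0.12 in the first set and 0.08 in the second.

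Other higher genes had differences of similar size. Dlgap4, a scaffold of the postsynaptic density, gave 10.28, 10.38, 10.19 and 10.29 on arrays 1 to 4 and 10.70, 10.98, 11.04 and 10.84 on arrays 5 to 8. Lrfn4, a synaptic adhesion protein, differed by 0.61, Cacna1g, a T-type calcium channel, by 0.62, and Ank1, an ankyrin that ties membrane proteins to spectrin, by 0.61. Among genes chosen after their values were seen, Kif5a, a kinesin of axonal transport, differed by 0.56, Grik5, a kainate receptor subunit, by 0.57, Evl, an actin regulator of growth cones, by 0.58, and Scrib, a polarity protein, by 0.56. The remaining genes among the largest 15 served other functions. They were Carmil3 (0.67), a regulator of actin capping, Lpcat1 (0.64), an enzyme of phospholipid remodelling, Zxda (0.63), a zinc finger gene, Dok3 (0.62), an adaptor of immune cells, Hmg20b (0.61), a subunit of a histone demethylase complex, Gtf3c1 (0.60), a subunit of transcription factor IIIC, Fam174c (0.59) and Rogdi (0.59).

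Iapp, which encodes the amyloid peptide that pancreatic beta cells secrete with insulin, had the largest difference of the separated genes in either direction. Its log2 signal was 7.67, 7.51, 7.65 and 7.51 on WT arrays 1 to 4 and 6.56, 6.47, 6.66 and 6.39 on WT arrays 5 to 8. The second set lay close to the level of a dim probe, and the means of 7.59 ± 0.09 and 6.52 ± 0.12 (SD, n = 4 each) differed by -1.07, or 2.10-fold. Rnf183, a ubiquitin ligase, gave 7.23, 7.27, 7.55 and 7.32 against 6.57, 6.47, 6.40 and 6.69, with a difference of -0.81. Defb25, a beta-defensin, gave 7.13, 7.27, 7.27 and 7.14 against 6.24, 6.64, 6.29 and 6.84. Its second set spread more widely, and the difference was -0.70.

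Dynll2, a light chain shared by dynein and myosin V, was the brightest of the lower genes. It gave 9.35, 9.53, 9.09 and 9.15 on arrays 1 to 4 and 8.79, 8.57, 8.23 and 8.90 on arrays 5 to 8, and its difference was -0.66. The other lower genes among the largest 15 had differences between -0.65 and -0.51. They were Olfr1420, an olfactory receptor, Acsm1, a mitochondrial acyl-CoA synthetase, Fam228b, Hoxa2, a patterning gene of the hindbrain, Pnoc, the nociceptin precursor, C5ar1, a complement receptor, Dsg2, a desmosomal cadherin, Nfe2l3, a transcription factor, Prl8a9, a placental member of the prolactin family, Chac2, an enzyme of glutathione breakdown, and Stat4, a transcription factor of cytokine signalling. Hoxa2 stood apart because WT array 1 read 7.97 while WT arrays 2 to 4 read 6.83, 6.87 and 6.90, against 6.16 to 6.79 on arrays 5 to 8.

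**Figure D1:**
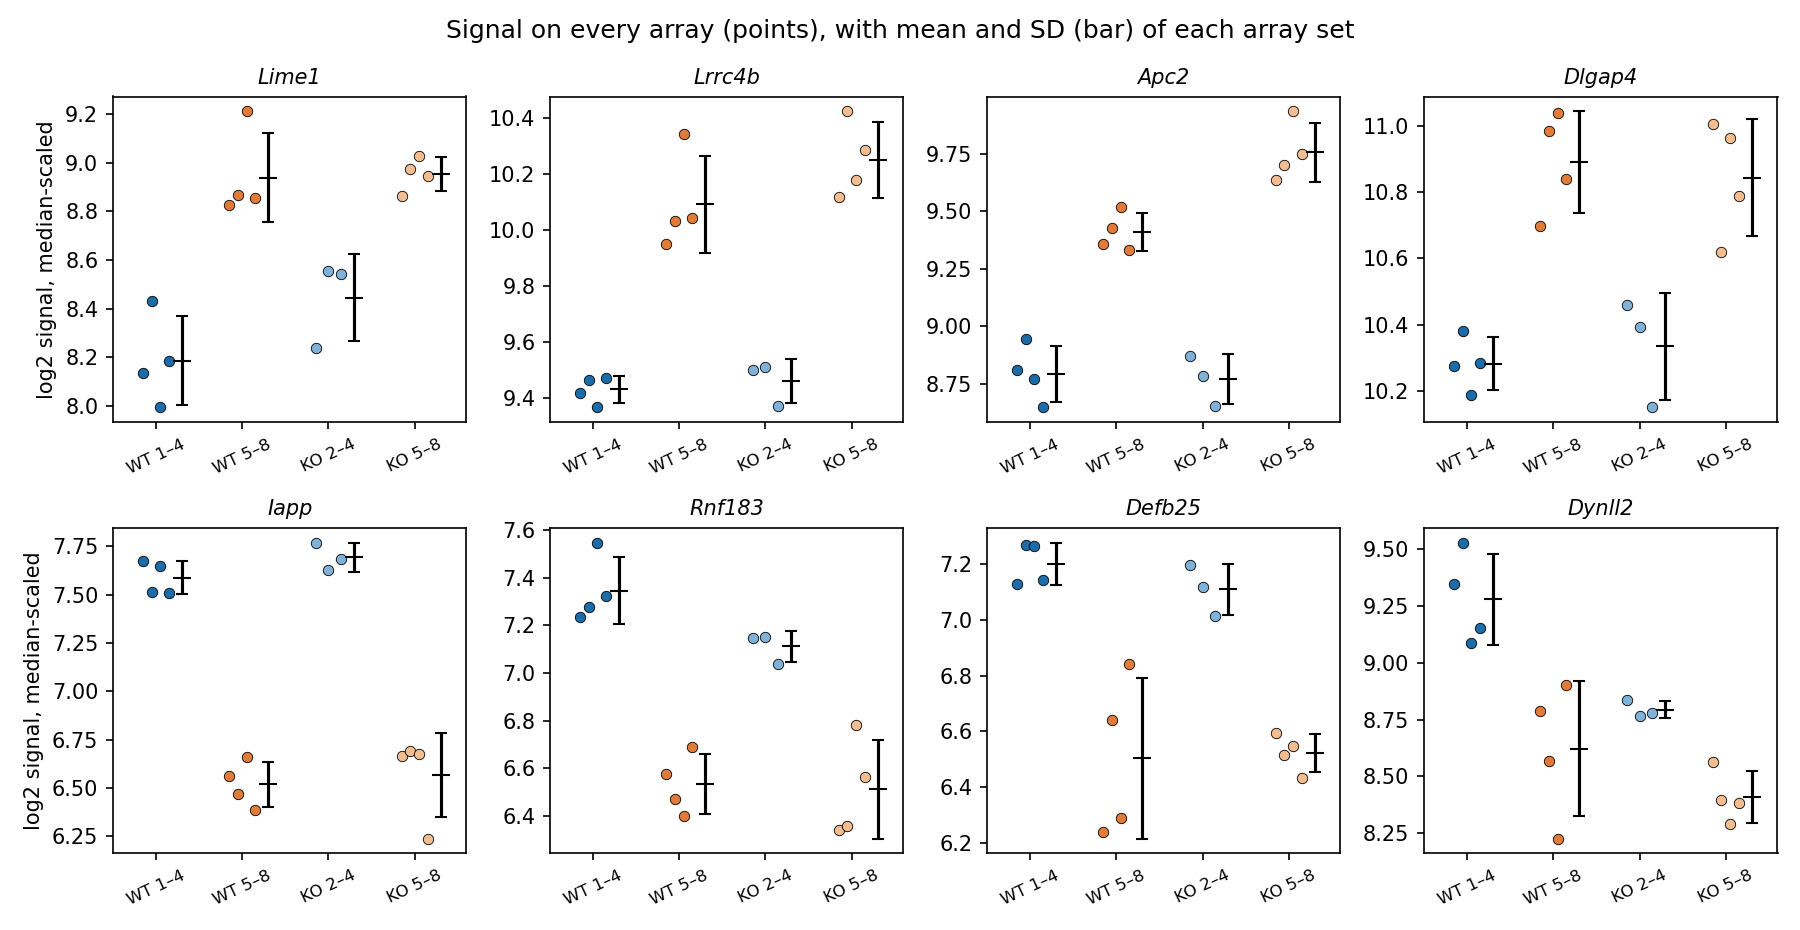
Log2 signal after median scaling (y axis, a scale of its own in each panel) of 4 genes higher and 4 genes lower on WT arrays 5 to 8, by array set (x axis), with each point an array and the bar its set's mean and SD. The WT sets do not overlap in any panel, by construction, and Iapp lies at 7.51 or above on WT arrays 1 to 4 and at 6.66 or below on WT arrays 5 to 8.

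Promoters are shown for a higher and a lower gene, each the 250 bases before the annotated start in the RefSeq sequence of build GRCm38.p6, 5′ to 3′, with every CG in capitals. The Lrrc4b window is chr7:44442237-44442486 on the plus strand and the Iapp window is chr6:142298175-142298424 on the plus strand.
Lrrc4b: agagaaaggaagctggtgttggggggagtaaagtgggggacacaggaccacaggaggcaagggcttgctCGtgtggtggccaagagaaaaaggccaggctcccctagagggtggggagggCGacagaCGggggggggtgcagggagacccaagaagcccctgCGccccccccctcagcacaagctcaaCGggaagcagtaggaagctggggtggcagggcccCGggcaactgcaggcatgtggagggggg
Iapp: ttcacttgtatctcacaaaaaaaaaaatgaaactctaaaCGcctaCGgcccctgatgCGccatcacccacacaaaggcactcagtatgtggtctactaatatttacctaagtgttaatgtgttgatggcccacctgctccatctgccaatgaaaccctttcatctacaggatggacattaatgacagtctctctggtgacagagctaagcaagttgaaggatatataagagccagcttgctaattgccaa
The Lrrc4b window held 6 CG and was 66% G or C, and the Iapp window held 3 CG and was 42.8% G or C. Neither held TATAAA on either strand, letters that 12.4% of 32851 promoter windows of this length hold, and 92.1% of them hold at least 1 CG, with a median of 6. A window was found for 58 of the 70 higher genes, which held a median of 16 CG (range 1 to 37). The 6767 windows of genes in deciles 6 to 10 of mean signal had a median of 16. For the lower genes the comparison is void, since only 14 of 20 had a window. Over all genes of deciles 6 to 10 with a window, the median WT difference ran from 0.14 to 0.16 over quintiles of promoter G and C content. For these quintiles the content was counted on the whole promoter sequence at hand, which was not limited to the 250 bases.

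The difference between the sets changed with the brightness of a gene. With genes divided into deciles by mean signal, the median WT difference was 0.01 in decile 1, the dimmest, -0.07 in decile 3, -0.00 in decile 5, 0.18 in decile 8 and 0.13 in decile 10. Sets that did not overlap, higher on arrays 5 to 8, made up 28.4% of decile 10 and 2.11% of decile 1. Sets that did not overlap, lower on arrays 5 to 8, made up 13.4% of decile 3 and 0.181% of decile 10. The same measure on whole arrays ran alongside. The 75th percentile of the scaled log2 signal lay between 8.71 and 8.74 on WT arrays 1 to 4 and between 8.85 and 8.95 on WT arrays 5 to 8, and the standard deviation of log2 signal between 1.86 and 1.89 and between 1.91 and 1.97. The part of this spread of signal in the separated genes was not tested. Of the scalings compared next, quantile normalization makes the spread equal between arrays. No scaling and the 75th percentile change only the level of each array.

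**Figure D2:**
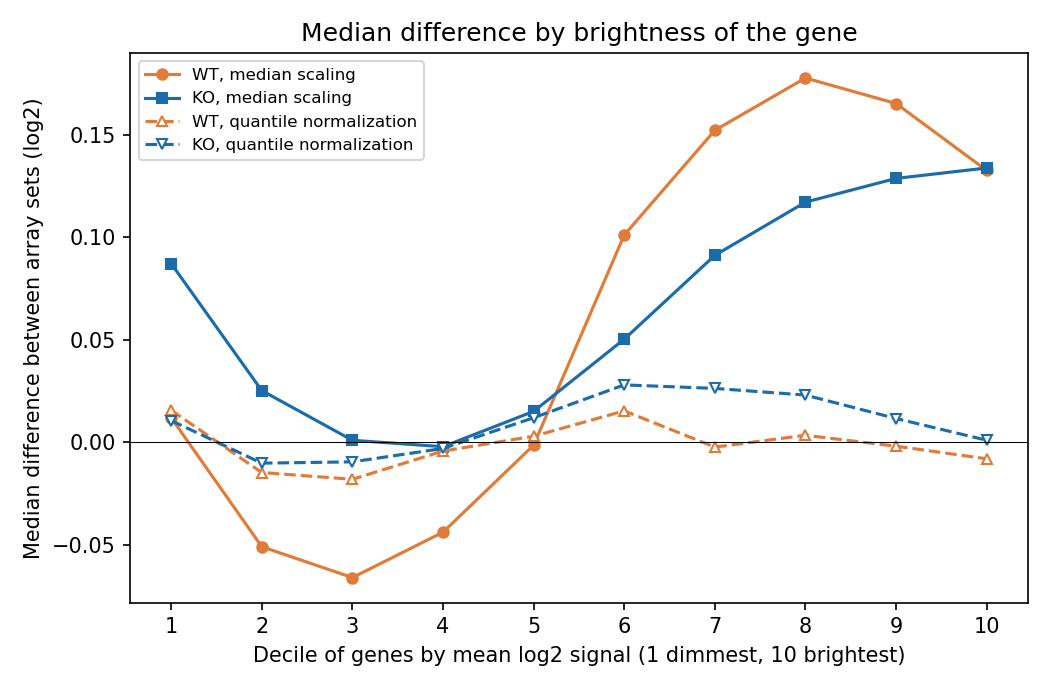
Median difference between array sets (y axis, log2) in each decile of genes by mean signal (x axis), for WT (5 to 8 minus 1 to 4) and KO (5 to 8 minus 2 to 4) after median scaling and after quantile normalization. The WT line climbs from -0.07 in decile 3 to 0.18 in decile 8 after median scaling and stays between -0.02 and 0.02 after quantile normalization.

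The split between higher and lower genes depended on the scaling. Quantile normalization gave 3 higher and 24 lower separated genes, no scaling gave 5 and 85, and scaling to a common 75th percentile, an alternative chosen after seeing the data, gave 1 and 187. These scalings moved the median WT difference of all genes from 0.05 to -0.00, -0.06 and -0.12. No scaling and the 75th percentile shift the WT difference of every gene by the same amount, which was below 0.5. Under both, the sign of a separated gene was thus fixed in advance, and only quantile normalization could have changed it. All 70 higher genes remained higher under these 3 scalings, and 51 of them kept sets without overlap under each. All 20 lower genes remained lower and without overlap under each. The difference of Lime1 was 0.59 and that of Lrrc4b 0.49 after quantile normalization, while that of Iapp was -1.11.

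**Figure D3:**
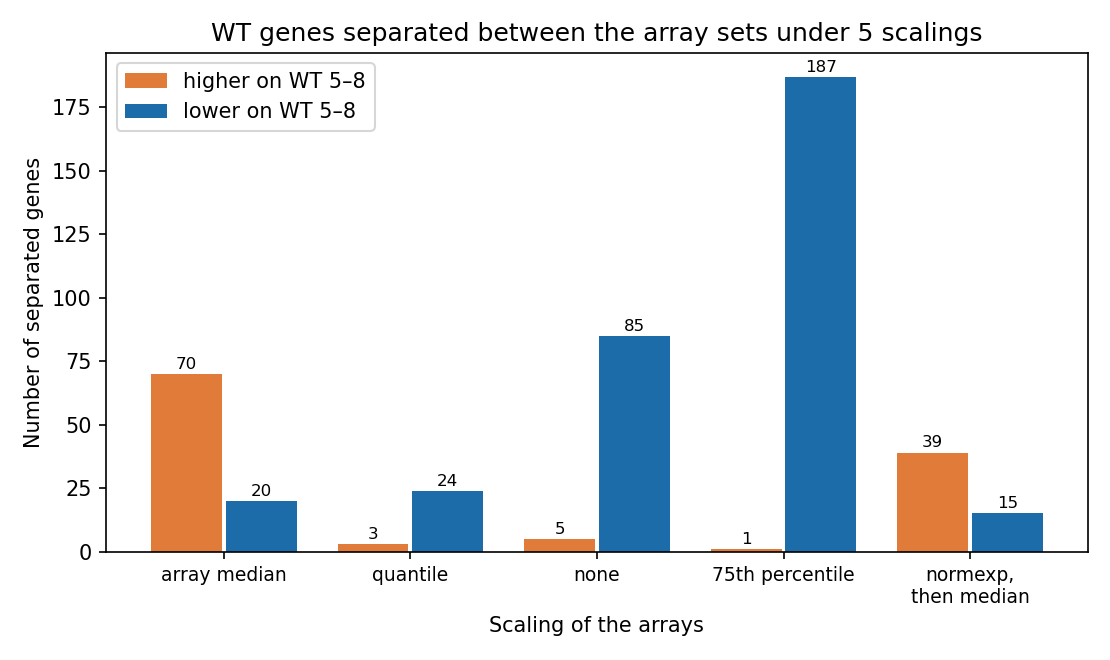
Number of WT genes separated between the array sets (y axis) under 5 scalings of the arrays (x axis), higher or lower on arrays 5 to 8. Higher genes prevail after scaling to the array median (70 against 20) and lower genes after scaling to the 75th percentile (1 against 187).

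Where a separated gene had further probes, they were compared as well. The 24 higher genes with more than 1 probe had 44 further probes, of which 30 were also higher on arrays 5 to 8, including all 10 with a mean log2 signal over 8. The 6 lower genes with more than 1 probe had 9 further probes, and all 9 were lower. These 9 probes were dim, with mean log2 signals of 6.71 or below. Genes of deciles 1 to 5 by mean signal had a median WT difference of -0.03. The median difference of the 9 probes was -0.11.

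Gene lists for cell types, regions, maturation, stress and basic cell functions were used to ask which programs went with the array sets. Of 43 lists 42 had a measured gene, with 1359 genes in all, and they held 6 of the 70 higher and 1 of the 20 lower genes. No list had more than 1 separated member. The 7 genes were Id4, an inhibitor of differentiation in glia (0.53), Pcsk1n, a neuroendocrine protease inhibitor (0.56), Rps3a1, a ribosomal protein (0.57), Chac1, a target of the unfolded protein response (0.52), Bcl6, a transcriptional repressor in the glucocorticoid list (0.52), Pmvk, an enzyme of cholesterol synthesis (0.51), and Hoxa2 (-0.59).

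Lists of bright genes differed by small amounts. Their counts are to be read beside the genes without overlap that were higher on arrays 5 to 8, which made up 12.8% of all genes and 20.7% to 28.5% of each of deciles 7 to 10, and those that were lower, 4.53% of all genes. Of 61 cytosolic ribosomal protein genes, 22 did not overlap and were higher on arrays 5 to 8 (36.1%) and 0 were lower, with a median WT difference of 0.18. The mean of the list, relative to its mean over all arrays, was -0.09, -0.13, -0.12 and -0.15 on WT arrays 1 to 4 and 0.09, 0.03, -0.02 and 0.07 on WT arrays 5 to 8. Rps3a1 had the largest difference and Rpl34 the next at 0.40. Nuclear genes of oxidative phosphorylation behaved alike, with 28 of 73 higher and 0 lower, a median of 0.17, and a difference of 0.47 for Atp5h, a subunit of ATP synthase. Of 74 mitochondrial ribosomal protein genes 31 were higher and 0 lower, with a median of 0.15. These medians stood only 0.05, 0.04 and 0.03 above the median of genes in the same decile. After scaling to the 75th percentile they were 0.00, -0.00 and -0.03.

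Lists of stress responses had medians of the same size. Sets without overlap that were higher made up 12.8% of all genes and 20.7% to 28.5% of each of deciles 7 to 10. Those that were lower made up 4.53% of all genes. Of 22 heat shock and chaperone genes, which keep proteins folded, 7 did not overlap and were higher (31.8%) and 0 were lower. This list had a median WT difference of 0.18, or 0.05 above genes of the same decile. Hsf2, a heat shock transcription factor, had a difference of 0.49 and Hspa8, a constitutive chaperone, one of 0.32. Of 35 genes of hypoxia and glycolysis 7 were higher (20%) and 0 lower, with a median of 0.18, or 0.08 above the same decile. Slc2a3, a glucose transporter of neurons, differed by 0.42. Of 28 genes of apoptosis and p53 targets 8 were higher (28.6%) and 2 lower (7.14%), with a median of 0.18, or 0.02 above the same decile. In KO the medians of these 3 lists were 0.00, 0.03 and 0.15. Beside the 4.04% of all genes that rose and the 1.57% that fell in the KO test described below, 0 heat shock genes passed, 2 genes of hypoxia and glycolysis rose and 1 fell, and 0 genes of apoptosis passed.

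Lists of cerebellar neurons and glia differed as little. Of 28 Purkinje cell genes 10 (35.7%) did not overlap and were higher on arrays 5 to 8 and 0 were lower. Such higher genes made up 12.8% of all genes and 27.9% of decile 8. The median signals of the Purkinje, synaptic and glial lists lay in that decile. Among the 10 Purkinje cell genes were Foxp4, a forkhead factor of Purkinje cells (0.49), Pcp2 (0.37) and Gad1, which makes GABA (0.36). The median of the list was 0.15, which is 0.01 above genes of the same brightness, and after scaling to the 75th percentile the means of the list lay lower on arrays 5 to 8. In KO the median of the list was 0.29, with 7 of 28 genes that rose (25%, beside 4.04% of all genes) and 0 that fell. Its KO means were without overlap after median scaling and quantile normalization, but not without scaling or with the 75th percentile. Of 21 genes of granule cell progenitors 0 did not overlap and were higher and 1, Boc, was lower, with a median of 0.05. Differentiating granule neurons had a median of 0.13 with 2 of 26 higher and 1 lower. Synaptic genes had a median of 0.06 with 7 of 58 higher (12.1%) and 2 lower (3.45%). These synaptic shares were close to those of all genes, while decile 8 had 27.9% higher and 0% lower. Gria3, an AMPA receptor subunit, had a difference of -0.33 and Dlg3, a synaptic scaffold, one of 0.29. For Bergmann glia and astrocytes the median was 0.16, or 0.08 above genes of the same brightness. Of 37 such genes 5 were higher (13.5%, near the 12.8% of all genes and below the 27.9% of decile 8) and 1 lower. Apoe, the lipid carrier of astrocytes, differed by 0.44. In KO this list had a median difference of -0.04. In it 1 gene rose (2.70%, beside 4.04% of all genes) and 3 fell (8.11%, beside 1.57%), and Apoe had a KO difference of -0.38 that did not pass.

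Across the 42 lists, the means of the WT sets did not overlap for 11 after median scaling, all higher on arrays 5 to 8. This number was 1 after quantile normalization, the list of inhibitory interneurons and the Ptf1a lineage with a median of 0.05 there, and 0 without scaling. After scaling to the 75th percentile, 8 lists were lower and 0 higher. No cell type list was thus without overlap in 1 direction under every scaling. Proliferation was included in this comparison. Replication genes had a median of 0.12 and mitotic genes of 0.05, and their WT sets overlapped after median scaling.

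**Figure D4:**
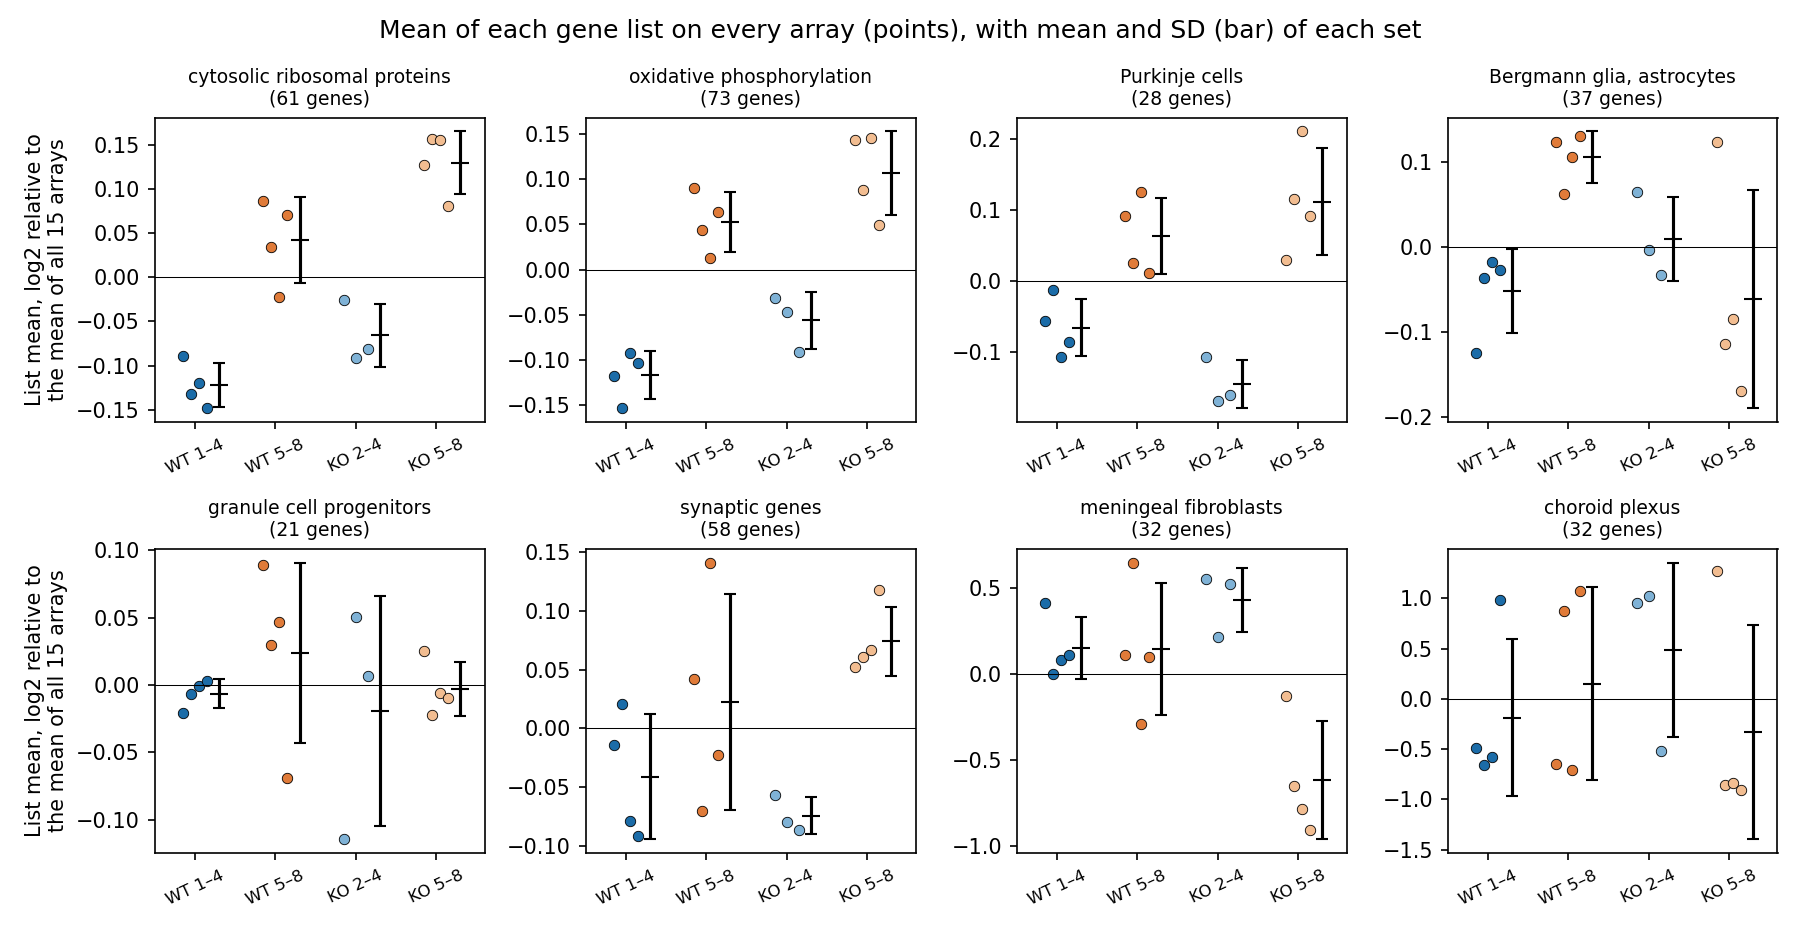
Mean of 8 gene lists on every array (y axis, log2 relative to the mean of all 15 arrays, a scale of its own in each panel) by array set (x axis), with each point an array and the bar its set's mean and SD. WT sets do not overlap for ribosomal proteins, oxidative phosphorylation, Purkinje cells and glia, by small amounts, whereas choroid plexus and meningeal lists vary widely inside the sets.

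Choroid plexus and meninges varied between arrays of the same set. The mean of 32 choroid plexus genes was -0.49, -0.66, -0.58 and 0.98 on WT arrays 1 to 4 and -0.65, 0.88, -0.71 and 1.08 on WT arrays 5 to 8. It was high on 1 array of the first set and on 2 arrays of the second. Ttr, the thyroxine carrier that the choroid plexus secretes, read 15.44 on WT array 4, 15.60 on WT array 6 and 15.82 on WT array 8, and between 9.16 and 10.57 on the other WT arrays. In whole tissue, fewer cells of a type and less RNA per cell cannot be told apart. The mean of 32 meningeal fibroblast genes lay between -0.00 and 0.41 on arrays 1 to 4 and between -0.29 and 0.65 on arrays 5 to 8. The part of choroid plexus and meninges in the difference between the sets was not tested, since genes chosen for no overlap over all 8 arrays cannot overlap in a subset of them.

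Sex also differed in part between the sets. Xist, which silences an X chromosome in female cells, read 8.28, 8.30, 8.16 and 8.19 on WT arrays 1 to 4 and 6.39, 6.17, 8.54 and 8.52 on WT arrays 5 to 8. Eif2s3y, a gene of the Y chromosome, was at 9.46 and 9.10 on WT arrays 5 and 6 and between 5.94 and 6.02 on the other WT arrays. WT arrays 5 and 6 thus read as male and the other 6 as female. Of the KO arrays, 2 to 6 and 8 had a high Eif2s3y signal and KO array 7 did not. By this gene WT arrays 1 to 4 read as female and KO arrays 2 to 4 as male. The part of sex in the difference between the sets was likewise not tested.

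The KO arrays were used to ask whether the same genes differed between KO arrays 2 to 4 and KO arrays 5 to 8, which share no sample with WT. The division was first seen over both genotypes, so this is not independent evidence that the sets differ. Of the 90 separated genes 86 had a KO difference of the same sign (95.6%), against 66.3% of all genes. Of the 70 higher genes 31 rose in KO and 0 fell by limma at an adjusted threshold of 0.05, beside 4.04% of all genes that rose (670 genes). Of the 20 lower genes 12 fell and 0 rose, beside 1.57% of all genes that fell (260 genes). After quantile normalization 12 of the 70 and 10 of the 20 passed. The higher genes were mostly bright, and the median KO difference was 0.11 over deciles 6 to 10 and 0.03 over deciles 1 to 5. The shares of all genes are thus not those of genes of like brightness, which were not counted.

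Apc2 rose by 0.99 ± 0.10 (SE) on KO arrays 5 to 8, with an adjusted p of 0.0012 by limma, from 8.87, 8.78 and 8.65 to 9.64, 9.70, 9.94 and 9.75. Lrrc4b rose by 0.79 ± 0.10 (adjusted p of 0.0029, limma), from 9.50, 9.51 and 9.37 to 10.12, 10.42, 10.18 and 10.28. Lime1 rose by 0.51 ± 0.10 (adjusted p of 0.018, limma), although KO arrays 3 and 4 at 8.56 and 8.54 came close to the 8.86 of KO array 5, and after quantile normalization its adjusted p by limma was 0.058. Iapp fell by 1.13 ± 0.12 (adjusted p of 0.0014, limma), from 7.77, 7.62 and 7.68 to 6.66, 6.69, 6.67 and 6.24. The drop of Iapp was thus of nearly the same size in both genotypes, and the 7 arrays numbered 1 to 4 lay above the 8 arrays numbered 5 to 8.

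Of the largest 15 genes in each direction 10 higher and 10 lower genes passed the KO test. Rnf183 fell by 0.60, Defb25 fell by 0.59, Dynll2 fell by 0.39 and Olfr1420 fell by 0.53, with adjusted p of 0.016, 0.0078, 0.031 and 0.010 by limma. Hmg20b, Gtf3c1, Fam174c and Rogdi had KO differences of 0.15, 0.30, 0.12 and 0.20 that did not pass, and Hoxa2 one of -0.17. The 4 separated genes with a KO difference of opposite sign were Chac1 (-0.45), Bcl6 (-0.25), Ikbip (-0.14) and Tmem230 (-0.09), none of which passed. The lowest of KO arrays 2 to 4 read 9.27 for Chac1 and the highest of KO arrays 5 to 8 read 9.19.

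**Figure D5:**
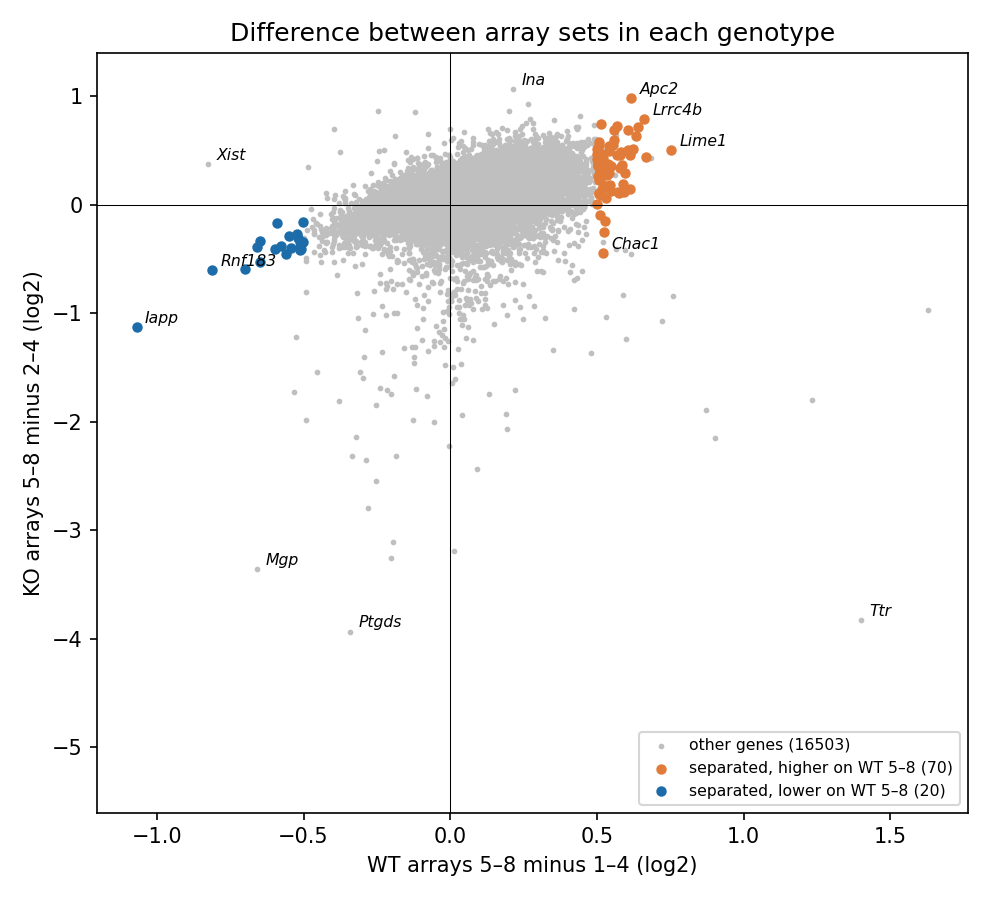
Difference between array sets in WT (x axis, log2, arrays 5 to 8 minus 1 to 4) and in KO (y axis, log2, arrays 5 to 8 minus 2 to 4), with each point a gene and the 90 separated genes coloured. Of these 86 lie in the quadrants of equal sign, and Ptgds and Mgp lie at -3.93 and -3.35 on the KO axis.

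Apc2 and Lrrc4b were among the 10 genes that rose most in KO. Other genes with large KO changes were not separated in WT. Ina, a neuronal intermediate filament, rose by 1.07 and Uchl1, a neuronal deubiquitinase, by 0.82 (adjusted p of 0.00058 and 0.0018, limma), with WT differences of 0.22 and 0.44. Ptgds, the prostaglandin D synthase of meninges and choroid plexus, fell by 3.93, and Mgp, which encodes a matrix protein, fell by 3.35 (adjusted p of 0.0012 and 0.0063, limma), where the WT differences were -0.34 and -0.66 between sets that overlapped. Of the 32 meningeal fibroblast genes 17 fell in KO and 0 rose, beside 1.57% and 4.04% of all genes, with a median KO difference of -0.65 and a median WT difference of 0.00. The list mean was 0.55, 0.22 and 0.52 on KO arrays 2 to 4 and -0.13, -0.65, -0.79 and -0.91 on KO arrays 5 to 8.

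The difference of the set contrast between the genotypes contains the WT contrast by which the division was chosen, so its counts are a description. By limma 0 of 16593 genes passed the adjusted threshold and 1654 (9.97%) had an unadjusted p under 0.05, and with eBayes trend and robust settings 3 and 1 passed. The difference was 3.59 for Ptgds, 2.70 for Mgp and 0.96 for Chac1 (WT minus KO, log2). Counts of the KO test moved by over 1.5 times when any of KO arrays 3 to 8 was left out. They were 18 higher and 31 lower without KO array 4, 121 and 143 without KO array 3, 1082 and 613 without KO array 5, 186 and 97 without KO array 6, 100 and 77 without KO array 7, and 410 and 151 without KO array 8.

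Across all genes, Pearson's r between the WT and the KO differences was 0.36 and Spearman's rho 0.43, and r was 0.34 after quantile normalization. The points share their arrays and their place on the scale of brightness, and genes are not independent replicates. The median KO difference by brightness was 0.09 in decile 1, 0.00 in decile 3, 0.09 in decile 7 and 0.13 in decile 10, and the 75th percentile lay between 8.74 and 8.78 on KO arrays 2 to 4 and between 8.79 and 8.93 on KO arrays 5 to 8. Ribosomal protein genes had a median KO difference of 0.20 and genes of oxidative phosphorylation of 0.18, with 8 of 61 (13.1%) and 4 of 73 (5.48%) that rose, the latter near the 4.04% of all genes. Ion channels and neurofilaments of mature neurons had a median difference of 0.11 in WT and 0.18 in KO. In KO 7 of 31 rose (22.6%) and 0 fell, and the list means did not overlap except without scaling. In WT the list means were without overlap only after median scaling. Genes of immature neurons and axon growth had medians of 0.09 and 0.23, with 12 of 43 that rose in KO (27.9%) and 1 that fell. For synaptic genes 8 of 58 rose in KO (13.8%) and 0 fell. The KO means of the immature neuron list were without overlap only after median scaling. Those of the synaptic list were without overlap after median scaling and quantile normalization, but not without scaling or with the 75th percentile.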

How the data were processed

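RNA of 15 cerebella was hybridized to 15 arrays, and samples were grouped by the genotype and number in their labels. The authors extracted signals with GenomeStudio and deposited the signal intensity of 25697 probes per array without normalization between arrays, and a log2 table in which the authors had shifted each array to the same median. The latter equals the centred log2 of the former within 6.2e-05. How background was treated is not given in the sources used here, and no detection p was used. Precision is limited by how few arrays there are.

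The log2 signals of each array were shifted to 1 median, and the probe with the highest mean stood for its gene (23978 probes with 1 symbol, 0 with several and 1719 with none, 23962 matched to RefSeq). KO sets and the difference between genotypes were tested with limma 3.58.1 in R 4.3.3 (lmFit and eBayes, both sides, Benjamini-Hochberg over 16593 genes, threshold 0.05). Nothing says which arrays share a litter or a processing run, so that p-values measure only the spread between these samples. Python 3.11.15 served for the remaining values (pandas 2.3.3, numpy 2.4.6, scipy 1.17.1) and for the figures (matplotlib 3.10.9). The scripts were tested on simulated data. The gene lists were written from general knowledge, and the members and lists were chosen with earlier results of these data known.

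Named are the 15 largest WT differences in each direction among separated genes, the 4 largest members of each list and markers of each tissue, the 10 largest KO changes in each direction, sex-linked genes, Ttr and Cxcr4, and the genes at the limit. Kif5a, Grik5, Evl, Scrib, Ikbip and Tmem230 were named after their values were seen. Alternatives were the authors' log2 table, quantile normalization, no scaling, normexp (offset 50), the mean of a gene's probes, a filter that kept genes brighter than the common median on 7 or more arrays, other limits and thresholds, Xist as a covariate, eBayes with trend and robust settings, the array number as a block, and leaving out each array, arrays of high Ttr or WT arrays of high Y-linked signal. Scaling to the 75th percentile was added after seeing the data. Mitochondrially encoded genes were not analysed here.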

Additional observations from a re-analysis of the deposited data

Results flagged for a closer look

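In 189 groups of 4 arrays, taken from 63 genes and lists, 11 held an array whose distance from its neighbour exceeded Dixon's 95% critical value, where chance alone gives about 1 group in 20. Lime1 read 9.211 on WT array 7 against 8.83 to 8.87 on the other arrays of the set. Dok3 read 8.319 on WT array 5 against 8.49 to 8.52. Hoxa2 read 7.969 on WT array 1 against 6.83 to 6.90, and 7.618 on KO array 8 against 6.66 to 6.79. Iapp read 6.238 on KO array 8 against 6.66 to 6.69, and Zxda 9.35 on the same array against 9.90 to 9.92. Adgrb2 read 10.89 on WT array 5 against 11.11 to 11.12, Actg1 read 6.381 on WT array 6 against 6.25 to 6.26, and Cxcr4 read 8.769 on WT array 1 against 9.11 to 9.15. The mean of the choroid plexus list, in log2 units relative to all arrays, was 0.9823 on WT array 4 against -0.66 to -0.49, and 1.27 on KO array 5 against -0.91 to -0.83.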

How the results depend on the processing

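Counts of separated WT genes, higher and lower on arrays 5 to 8, were 70 and 20. They were 3 and 24 after quantile normalization, 5 and 85 without scaling, 39 and 15 after normexp, 1 and 187 with the 75th percentile, 69 and 11 with dim genes left out, 2119 and 752 with no minimum difference and 0 and 1 with a minimum of 1. Without the WT arrays of high Y-linked signal they were 178 and 57, and without the arrays of high Ttr 252 and 62. Fewer arrays overlap more rarely, and the cause of these higher counts was not tested. Leaving out each WT array gave 59 to 116 higher genes, the latter without WT array 6, and 14 to 35 lower genes, the latter without the same array.

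KO genes past the threshold were 670 higher and 260 lower. They were 149 and 295 after quantile normalization, 40 and 877 without scaling, 135 and 378 with the 75th percentile, 118 and 85 with Xist as a covariate, 1469 and 489 at a threshold of 0.1, and 50 and 57 at 0.01. Without the arrays of high Ttr, which leaves 1 array in KO set 2 to 4 that is assumed to vary like the others, they were 436 and 382. Leaving out each KO array gave 18 to 1082 higher and 31 to 613 lower genes. Except where named, the cause was not tested.

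The share of separated genes with the same sign in KO, 95.6%, was 85.2% after quantile normalization, 80.9% without the arrays of high Ttr, 86.7% with no minimum difference and 100% with a minimum of 1, which is 1 gene. Each share is over the genes separated under that setting, after quantile normalization 3 higher and 24 lower ones. Of the 90 genes separated after median scaling, 81 had the same sign in both genotypes after quantile normalization. Leaving out each array gave 83.1% to 97.3%. The limma test of the difference between genotypes, which draws on the WT contrast and is therefore not read as a result, had 0 genes past the threshold in each direction, 1 more positive in WT at a threshold of 0.1, 3 and 1 with eBayes trend and robust settings, and 79 and 6 without the arrays of high Ttr. Leaving out each array gave 0 to 222 and 0 to 32, both highest without KO array 5, and 9 and 1 without WT array 7.

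Array numbers shared by WT and KO correlated over 0.1 for 1 of 7 pairs, and the numbers were not used as pairs. Whether equal numbers share a chip, run or litter is not given in the labels. With the replicate block the difference between genotypes had 0 genes in each direction. The KO difference of Hmg20b was -0.0498, of Fam174c -0.0786 and of Rogdi -0.000395 without scaling, and that of Hoxa2 ran from -0.39 without KO array 8 to 0.12 without KO array 2 and was 0.31 without the arrays of high Ttr. Of the 15 and 15 named WT differences none changed sign. Leaving out arrays could not change it, since the genes were chosen for no overlap. Nor could no scaling or the 75th percentile, which shift all differences by the same amount, below 0.5. Signals near the array median limit what can be said of most lower genes.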

Other observations

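Gene families that the newborn cerebellum hardly uses were looked up after the dim lower genes had been seen. Of 1058 olfactory receptor genes, which detect odorants in the nose, 16 did not overlap and were higher on WT arrays 5 to 8 and 106 were lower, beside 4.53% of all genes and 7.35% to 13.4% of each of deciles 2 to 4 by mean signal that were lower, with a median WT difference of -0.05 and a median log2 signal of 6.13. The share of olfactory receptors lay within the range of those dim deciles. Of 139 vomeronasal receptor genes, which detect pheromones, 2 were higher and 19 lower, with a median difference of -0.06. Of 41 beta-defensin genes 0 were higher and 4 lower, of 22 placental prolactin genes 0 and 3, and of 47 keratin genes 1 and 7, shares of 9.76%, 13.6% and 14.9% lower. The medians of the olfactory and vomeronasal receptors were -0.02 and -0.03 after quantile normalization and -0.22 and -0.24 after scaling to the 75th percentile, and in KO they were 0.03 and 0.03. Genes of deciles 1 to 5 by mean signal had a median WT difference of -0.03 and those of deciles 6 to 10 one of 0.15.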
